A study of Mus musculus with 101 samples.

Results

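The 16 least methylated of 85 naive mouse embryonic stem cell lines were set beside 24 lines of intermediate methylation, to describe which captured regions carried methylation in lines that had little of it. A line's level was the mean over the 787 of 868 target regions that had a value in at least 80% of the 85 columns. Lines with a mean under 10% are called low lines, and lines with a mean of 15% to 25% are called intermediate lines. The remaining lines were 19 between these limits and 26 above 25%. Because the lines were chosen by these measured means, every difference in methylation between the low and the intermediate set is a description and carries no test. Only what the labels and missing values say of the lines was tested.

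All lines came from Diversity Outbred stock, an outbred mouse population bred from several inbred founder strains. They were grown in medium with serum and LIF plus 2i, inhibitors of MEK and GSK3 under which stem cells stay naive, and every group shared this culture. Methylation was read by enzymatic methyl sequencing after hybrid capture, and values are given as percent of the methylation fraction. Line names start with B1, B2, B3A or B3B. The meaning of these prefixes, the sex and age of the source embryos and the founder alleles of each line are not stated in the labels, nor is it stated that the columns were separate cultures. Each column is called a line, although 1 name, B1dB37, occurs with and without a final N, in the intermediate set and between the limits. Read counts per value are not given, so the depth is unknown. A population average also cannot tell a region methylated in few cells from one methylated at few of its CpGs.

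DNA methylation in mammals is added to cytosines in CG pairs and copied to the new strand after replication. Naive cells in 2i have low levels of it, because upkeep and new deposition are both reduced in this state. Imprinted control regions, which carry methylation from only 1 parent, and promoters of germline genes, which methylation silences, are well-known places where its loss has consequences.

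The promoters of Taf7l and Taf7l2 lay in regions with a high ratio of low to intermediate methylation, and those of Slc30a3 and Zscan4d in regions with a low ratio. Taf7l is the germ-cell relative of the TFIID subunit gene Taf7, Slc30a3 encodes a zinc transporter of synaptic vesicles, and Zscan4d belongs to a zinc finger family expressed at the 2-cell stage. These windows are shown so that their CG pairs, in capitals, can be compared. They run from 250 bases before to 50 after the start of the gene, are written 5′ to 3′ on the strand of the gene, and come from RefSeq on GRCm38.p6. All of them are on the minus strand, at chrX:134476441-134476740, chr10:116113868-116114167, chr5:31108195-31108494 and chr7:11166099-11166398, in the order printed.
Taf7l: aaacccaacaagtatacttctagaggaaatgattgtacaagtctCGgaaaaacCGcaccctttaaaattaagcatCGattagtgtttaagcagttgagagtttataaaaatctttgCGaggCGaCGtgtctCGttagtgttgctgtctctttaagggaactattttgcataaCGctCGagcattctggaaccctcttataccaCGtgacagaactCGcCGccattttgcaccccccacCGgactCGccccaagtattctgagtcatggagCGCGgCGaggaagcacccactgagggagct
Taf7l2: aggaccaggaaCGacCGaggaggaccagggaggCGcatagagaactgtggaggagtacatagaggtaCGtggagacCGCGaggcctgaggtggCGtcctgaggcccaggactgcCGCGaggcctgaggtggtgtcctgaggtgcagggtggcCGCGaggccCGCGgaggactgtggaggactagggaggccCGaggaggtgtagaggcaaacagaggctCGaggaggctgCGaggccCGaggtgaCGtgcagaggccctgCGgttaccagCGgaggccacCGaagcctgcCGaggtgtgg
Slc30a3: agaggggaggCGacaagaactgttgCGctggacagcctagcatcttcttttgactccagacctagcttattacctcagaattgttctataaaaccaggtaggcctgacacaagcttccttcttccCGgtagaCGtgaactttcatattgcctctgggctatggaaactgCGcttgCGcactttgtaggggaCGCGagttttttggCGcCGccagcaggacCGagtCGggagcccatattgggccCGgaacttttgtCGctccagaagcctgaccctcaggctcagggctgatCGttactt
Zscan4d: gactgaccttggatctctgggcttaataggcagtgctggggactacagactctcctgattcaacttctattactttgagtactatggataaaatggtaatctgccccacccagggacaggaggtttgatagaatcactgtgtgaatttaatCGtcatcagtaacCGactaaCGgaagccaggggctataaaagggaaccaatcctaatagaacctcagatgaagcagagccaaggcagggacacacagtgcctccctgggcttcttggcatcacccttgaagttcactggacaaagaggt
The windows held 17, 22, 15 and 3 CG pairs, against a median of 7 over 32851 promoter windows. They are 4 of 9 windows read. The others in regions with a low ratio held 15 (Dnajc5g), 10 (Ccdc152), 4 (Abcb5) and 0 (Phf11a). That of Ppp1r14bl, named for its high level in low lines, held 11. The number of CG pairs in the sequence of each region was not counted, so its relation to the ratio was not tested. For the number of CpGs in the deposited CpG table, the rank correlation with the ratio was 0.046 over 466 regions. That number leaves out CpGs absent from the table, and it was 0 for the Taf7l region. Single CpGs were measured in 2 of the 4 windows, and every position fell on a CG of the sequence. In Taf7l2, the CpG at base 291 had a mean of 18.7% ± 8.45 (SD, n = 16) in low lines and 28.05% ± 7.95 (n = 24) in intermediate lines. The CpG at base 192 had 12.8% ± 7.24 and 31.5% ± 8.63. In Slc30a3, the CpG at base 26 had 8.57% ± 5.52 in low lines and 44.99% ± 10.5 in intermediate lines. At base 11 the means were 5.39% ± 4.90 and 32.7% ± 11.5, and at base 133 they were 2.00% ± 3.83 and 19.9% ± 9.20. Bases are counted from 1 at the 5′ end of each window.

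The low lines had means from 3.02% (B3Ad29N) to 9.86% (B3Ad20N), with a mean of 6.05% ± 1.76 (SD, n = 16). The intermediate lines averaged 18.9% ± 2.68 (n = 24). Just inside the limits stood 9.86%, 15.01% and 24.4%, and just outside stood 10.3%, 14.8% and 25.1%. The lines formed 1 continuous series, as the plot of line means shows, and no gap marked the limits. In a low line, a median of 24.1% of regions were under 1% (range 10.5% to 43.2%), and a median of 2.96% of regions reached 20% (0.381% to 15.97%). In intermediate lines 40.6% of regions reached 20%. Among 12392 region values in the low lines, 2 were at or above 50%: 78.4% at Gm18765 in B3Ad20N and 54.5% at Wdfy3 in B3Ad26N. B3Ad20N stood above the other low lines, the next being 7.91%, and it had the most regions without a value, 120. Leaving out lines from 8% upward removed only that line and moved the median ratio described below from 30.7% to 29.2%.

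**Figure D1:**
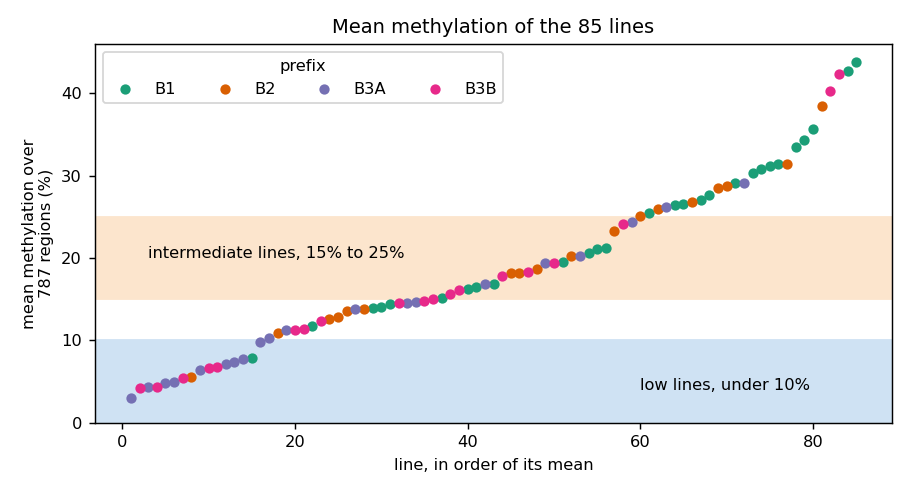
Mean methylation over 787 regions in percent (vertical axis) for each of 85 lines in ascending order (horizontal axis), coloured by prefix, with bands marking the 16 low and 24 intermediate lines. The points rise without a break, and the low band holds mostly B3A and B3B lines.

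Of the 16 low lines, 9 had the prefix B3A, 5 B3B, 1 B2 (B2d31) and 1 B1 (B1dB29). The 24 intermediate lines were 8 of B1, 5 of B2, 4 of B3A and 7 of B3B. Low lines thus made up 45% of the 20 B3A lines and 3.57% of the 28 B1 lines. A permutation test of the prefix makeup, with 100000 resamples, gave p = 0.0241 and an adjusted p of 0.0964 over 4 tests (Benjamini-Hochberg), which does not pass 0.05. Names with a final N made up 9 of 16 low and 7 of 24 intermediate lines (Fisher's exact test, two-sided, p = 0.110, adjusted p = 0.220). The labels do not say what the N marks. Lines listed under 2 titles were 3 of 16 and 2 of 24 (Fisher's exact test, p = 0.373, adjusted p = 0.497). Regions without a value numbered 68.9 ± 27.3 per low line and 67.2 ± 32.5 per intermediate line (two-sided permutation test, p = 0.854, adjusted p = 0.854).

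Where a ratio was computed, the difference between the sets was roughly proportional, with a wide range at single regions. Its typical size followed from the limits that chose the lines. For each region, the mean of the low lines as a percent of the mean of the intermediate lines is called the retained share. It was computed for the 466 regions with an intermediate mean of at least 10%, since 321 regions were already below that. The median retained share was 30.7%, with quartiles of 26.1% and 35.7% and a range of 10.04% to 59.8%. Regions that were high in intermediate lines were also the highest in low lines, with a rank correlation of 0.97 between the region means over 787 regions. Within a single low line, the rank correlation with the intermediate means ran from 0.79 to 0.94. These correlations are across regions of the same libraries and are not replicates. The retained share changed little with the starting level, from a median of 29.9% for the 77 regions at 10% to 15% to 32.9% for the 31 regions above 50%. Each low line's own median share ran from 13.3% to 51.0%.

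**Figure D2:**
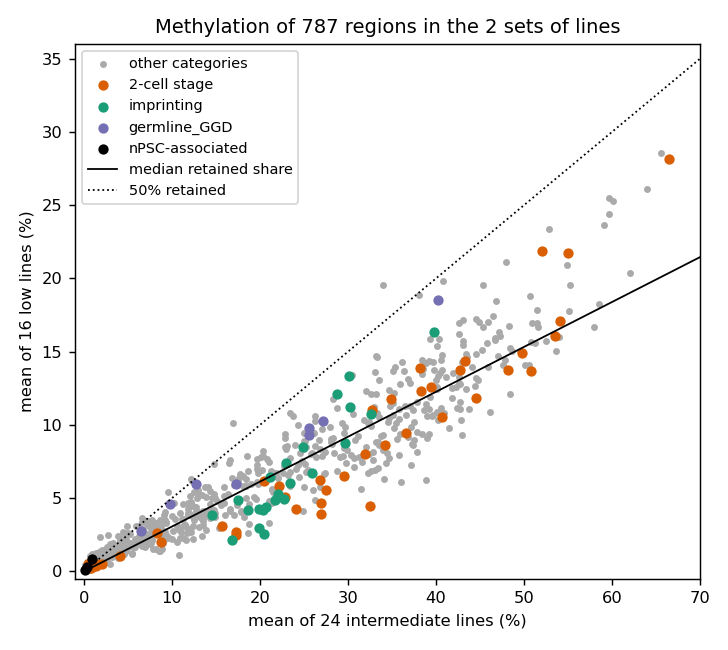
Mean methylation of 787 regions in percent in the 16 low lines (vertical axis) against the 24 intermediate lines (horizontal axis), with 4 categories coloured, the median retained share as a solid line and 50% as a dotted line. Most points follow the solid line, and among regions above 10% on the horizontal axis 4 reach the dotted line.

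At least 50% of the intermediate mean was present at 4 of 466 regions (0.858%), and at least 40% at 45 of 466 (9.66%). The second limit was chosen after the values were seen. Since the same contrast chose the lines, these shares are the background itself and nothing is read from them. The 4 regions overlapped Zfp64, Naa11 and Pax2 or lay near Rubie. At Zfp64, a zinc finger gene, the retained share was 59.8%, from 10.1% ± 9.33 in low lines and 16.9% ± 9.49 in intermediate lines. The median low line had only 4.61%, and 4 of 16 were at or above 20%. The region 11436 bp from Rubie had a share of 57.4%, with 2.72%, 19.6% and 31.8% as lowest, median and highest of 13 low lines, and 9.09%, 31.1% and 65.8% in 18 intermediate lines. Within B3A lines alone its share was 39.3%, and within B3B lines 51.1%. Here and below, shares within B3A rest on at most 9 low and 4 intermediate lines. Those within B3B rest on at most 5 low and 7 intermediate lines, and differences between prefixes were not tested. Naa11, a testis N-terminal acetyltransferase gene (51.7%), and Pax2, a kidney developmental transcription factor gene (50.7%), started from intermediate means of 12.2% at both. None of these 4 regions separated the sets: each had low lines above some intermediate lines.

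The regions with the highest levels in low lines were mostly those highest in intermediate lines. In low lines 181 of 787 regions had a mean of at least 10%, and 13 had at least 20%. Of the 15 highest regions in low lines, 11 were also among the 15 highest in intermediate lines. The top region overlapped Wdfy3, which encodes a scaffold of selective autophagy, at chr5:101969771-101970271 (mm10). The gene table has no exons, so regions are placed only as overlapping or near a gene. The Wdfy3 region had 10.4%, 29.99% and 54.5% as lowest, median and highest value in 15 low lines and 56.4%, 63.3% and 79.5% in 23 intermediate lines. The 2 sets did not overlap there, and the retained share was 43.6%. Next came the 2-cell stage region at Gm6189, with 16.5%, 27.2% and 40.6% in 16 low lines against 45.98%, 65.9% and 89.2% in 23 intermediate lines. Ppp1r14bl followed with 12.02%, 25.05% and 43.7% against 50.6%, 63.4% and 79.5%. These 3 regions were at or above 10% in every low line that had a value.

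A region in Tet3 (chr6:83404280-83404780), the gene of an enzyme that oxidises 5-methylcytosine, had 13.1%, 26.1% and 45.4% in low lines and 49.7%, 60.1% and 69.5% in intermediate lines. Every low line was below every intermediate line at this region, and its retained share was 42.1%. Among kept regions, 170 of 787 (21.6%) showed this full separation, and 169 of the 466 with a retained share (36.3%) did. Since the line means chose the sets, separation is built in. The Cancer-category region in Peg10, an imprinted gene derived from a retrotransposon, had a low mean of 25.5% ± 10.3 and an intermediate mean of 59.6% ± 11.02. Its share was 42.7%, but 34.2% when recomputed from the deposited CpG table, which held 1 CpG there. The separate imprinting region at Peg10 and Sgce had means of only 4.92% and 22.7%, with a share of 21.7%. Low means between 20% and 25% were seen at Wscd1 (24.4%), Pax6 (23.6%), Fabp9 (23.4%), Gm16332 (21.9%), Gm18765 (21.7%), near Smad3 (21.1%), Arhgap28 (20.9%) and Arhgap24 (20.4%). Pax6 is an eye and brain transcription factor gene, Fabp9 a testis fatty-acid-binding protein gene and Smad3 a mediator of TGF-beta signals. The Gm18765 mean rested partly on 78.4% in B3Ad20N. Without that value its share was 32.7%, against 39.5% with it. Grk6 (19.8%) and Melk (19.6%), both kinase genes, completed the 15.

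Among regions with an intermediate mean of at least 20%, the largest retained shares after that near Rubie were at Msh3, a mismatch repair gene (49.6%), Grk6, a kinase of G-protein-coupled receptors (48.5%), near Ahr, the aryl hydrocarbon receptor gene (46.1%), and Taf7l (46.02%). The Grk6 region lay at chr13:55450424-55450924. Its lowest, median and highest values were 13.8%, 17.5% and 33.3% in low lines and 29.7%, 39.9% and 55.1% in intermediate lines. Only 3 of 24 intermediate lines were below the highest low line at Grk6. Its share was 45.8% within B3A and 49.6% within B3B. Near Ahr the share was 113.9% within B3A, with few lines behind it, and 33.04% within B3B. Its SD between low lines was 33.7 points, and 2 of 16 low lines were at 0 there. At Taf7l the values were 1.48%, 18.05% and 48.7% in low lines and 18.2%, 39.8% and 55.4% in intermediate lines. The sets overlapped widely at Taf7l, where 19 of 24 intermediate lines were under the highest low line, B3Ad26N. Taf7l2 lies inside Ptprr, and that region had 3.61%, 10.9% and 16.6% against 16.5%, 23.3% and 33.4%, with a share of 44.5%.

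Next among the 15 largest were the Dlk1-Meg3 intergenic region (44.3%), Fabp9 (44.2%), Hdgfl1 (44.2%), near Smad3 (44.1%) and Ruvbl2 (44.1%). Wdfy3, Trib3 (43.1%), the Cancer-category region in Peg10 (42.7%) and Gm6189 (42.4%) completed the 15. Ruvbl2 encodes an ATPase of chromatin remodelling complexes and Trib3 a pseudokinase of the stress response. They came from 8 of the 11 categories, and no category supplied more than 3.

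The smallest shares among such regions were at Impact (12.5%), Abcb5 (13.8%), Tdpoz3 (14.6%), Slc30a3 with Dnajc5g (16.5%), Nxf3 (16.98%), Usp17le (17.3%) and Zscan4d (17.5%). Impact is an imprinted gene and is described with the other imprinted loci. Abcb5, a transporter gene in the 2-cell stage category (chr12:118966171-118966671), had 0%, 2.78% and 18.9% as lowest, median and highest in 15 low lines and 14.4%, 33.6% and 55.5% in 23 intermediate lines. It was at 0 in 4 of 15 low lines. Tdpoz3 had 0%, 2.94% and 12.5% against 10.7%, 25% and 54%, and 5 of 16 low lines were at 0. At both genes the highest low line passed the lowest intermediate line, so the sets touched.

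At Slc30a3, whose promoter is printed above, the low lines had 0.993%, 3.51% and 8.98% and the intermediate lines 15.9%, 22.1% and 43.9%. No low line reached 10% there, and the sets were separate. Zscan4d had 0%, 3.94% and 11.5% in 13 low lines and 7.97%, 25.6% and 39.2% in 20 intermediate lines, with 3 low lines at 0. Nxf3, an X-linked relative of the main mRNA export factor, had 0%, 5.25% and 14.6% against 11.2%, 35.2% and 59.8%. Usp17le, a deubiquitinase gene, had 0%, 5.33% and 9.31% against 7.69%, 28.1% and 39.4%. Its share was 10.03% within B3A and 26.3% within B3B, and that of Abcb5 was 17.3% and 5.39%. The order within this group was thus not the same in the 2 prefixes. The other 8 of the 15 were Traf3ip3, 1700048O20Rik, Ccdc152, Phf11a, Inpp5f, Frmd4a, near Tlr2 and Gm41005, with shares from 17.9% to 21%. Of the 15 regions with the smallest shares, 5 were of the 2-cell stage category, which supplied 28 of the 325 regions ranked.

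The same regions were then read in the 45 lines outside both sets. These lines were sorted by the same means, so the reading is not independent of the rule and is no test. A second ratio was the mean of the 19 lines between 10% and 15% in percent of the mean of the 26 lines above 25%. Over 325 regions the median of this second ratio was 42.2%. Of the 15 regions with the largest retained share, 14 were above that median, with their own median at 50.6%; the exception was the region near Ahr (33.9%). Of the 15 with the smallest, 0 were above it, and their median was 34.3%. Over all 466 regions the rank correlation between the 2 ratios was 0.51, and between shares computed within B3A and within B3B it was 0.44.

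The plot of retained share by category shows the regions of each category and their median. The median retained share was 38.1% in germline_GGD (6 regions), 37.1% in aging_shared (5) and 35.3% in aging_Young (46). It was 31.4% in B6J vs 129 (47), 30.8% in germline_Dahlet (77), 30.3% in aging_Meer (132), 30.1% in Cancer (86) and 29.02% in Lineage-associated (11). The lowest medians were in 2-cell stage (26.5%, 33 regions) and imprinting (26.1%, 23 regions). Category names are the authors' own. In the lines outside both sets the median second ratio was 40.2% in aging_Young, just below the 40.7% of all regions. In aging_shared it was 46.8%. Among regions at 15% to 40% in intermediate lines the order was similar, with 37.2% in germline_GGD (4), 23.3% in 2-cell stage (21) and 25.98% in imprinting (22), against 30.1% over 282 regions.

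**Figure D3:**
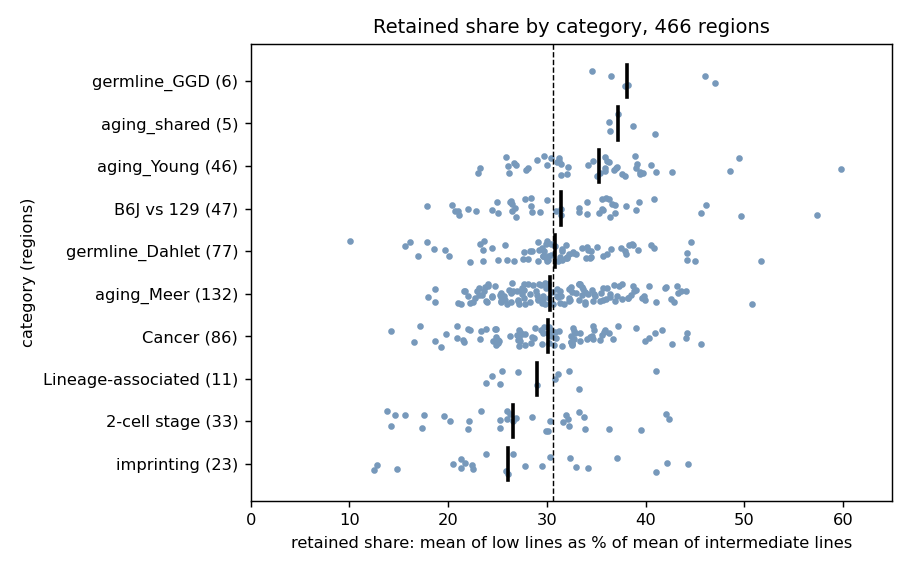
Retained share in percent (horizontal axis) of 466 regions, 1 point each, by category (vertical axis, number of regions in brackets), with a bar at each category median and a dashed line at the median of all regions. The category medians lie between 26.1% (imprinting) and 38.1% (germline_GGD).

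The germline_GGD category held 8 regions at genes that act in germ cells, such as Dazl and Mael. The 6 with an intermediate mean of at least 10% had shares from 34.6% to 47.0%, beside the median of 30.7% over all regions. Dazl, an RNA-binding protein gene of germ cells, had 3.25%, 8.06% and 20.1% as lowest, median and highest value in low lines and 15.7%, 24.2% and 37.3% in intermediate lines. Its share was 36.5%. The other 2 regions were under that limit: Ddx4, a germ-cell helicase gene, had means of 4.64% in low and 9.77% in intermediate lines, and Tex19.1 had 2.78% and 6.43%. Mael, a gene of the piRNA pathway, had a share of 47.0%, and Piwil2, which encodes a piRNA-binding protein, had 34.6%. Mov10l1 (38.2%) and Slc25a31 (37.9%) lay between these. At Slc25a31 no low line reached the lowest intermediate line. Within prefixes the category median was 33.2% in B3A and 34.6% in B3B, beside 29.6% and 28.8% over all regions. In the lines outside both sets the category median of the second ratio was 45.5%, beside 40.7% over all regions.

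A list of 26 germline genes, which overlaps that category, had regions at 22 genes. The 17 of its regions with a retained share had a median of 34.6%, beside 30.7% over all regions, and 3 of 17 were at or above 40%, beside 9.66% of all regions. Sycp3, a synaptonemal complex gene, had a share of 40.5%, from 8.25% and 20.4%. At the other end, 2 regions at Fkbp6, a meiosis gene, had 17.1% and 17.9%, and the sets were separate at both. A list of lineage regulators had 9 regions, of which those at Foxa2 and Sox17 were under the 10% limit. The other 5 had a median share of 39.95%, beside 30.7% over all regions. Nkx2-1 had 45.6%, Gata4 41.9%, Pax6 39.95% and 2 regions at Lhx9 had 31.4% and 29.3%. The Nkx2-1 share was 85.9% within B3A and 45.9% within B3B, and its SD between low lines was 33.3 points. At Nkx2-1, 16 of 24 intermediate lines were under the highest low line. The Lhx9 shares were 44.1% and 67.6% within B3A, and 22.8% and 14.95% within B3B. Of 12 genes of the methylation machinery only Tet3 and Dnmt3l had a region. Dnmt3l, the cofactor of new methylation, shares a region with Aire, where the share was 31.6%.

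The 2-cell stage category leaned to small shares, with 7 of 33 regions under 20%, beside 27 of 466 over all regions. At or above 40% were 2 of 33, beside 9.66% of all regions. Gm6189 (42.4%) and Gm16332 (42.1%) were among the most methylated regions in low lines, while BC147527 (14.2%) and Abcb5 had some of the smallest shares. For a list of 12 genes of the 2-cell state, 5 regions had a share, with a median of 26.8% and 0 of 5 at or above 40%, where 9.66% of all regions were. Eif4a3l2 had means of 13.6% and 50.8%, and Usp17la of 11.02% and 32.7%. In the lines outside both sets the category ratio was 38.8%, again below the 40.7% of all regions. Several of these genes belong to families of near-identical copies, and the labels do not say how reads shared between copies were handled.

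The 3 kept regions of the nPSC-associated category, at the pluripotency genes Nanog, Zfp42 and Tbx3, were near 0 in both sets. They were also the kept regions of a list of 15 pluripotency genes. Their category mean was 0.385% in low lines and 0.468% in intermediate lines. The highest single low line had 1.17% at Nanog, 3.94% at Zfp42 and 1.18% at Tbx3. No retained share was computed for them.

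Imprinted loci varied widely from line to line. Before their values, 1 intermediate line has to be set apart: B3Bd15N had an imprinting mean of 7.47% and 19.7% over its other regions, a ratio of 0.379 where the other intermediate lines ran from 0.902 to 1.80. All 23 imprinting regions had a value in enough lines and an intermediate mean of at least 10%. None of the 23 separated the sets completely (0 of 23, beside 36.3% of all regions with a share), and leaving out B3Bd15N left that count at 0. The largest shares were at the Dlk1-Meg3 intergenic region (44.3%), Snrpn (42.2%), Peg13 (41.1%), Kcnq1ot1 (37.1%), the larger-share region of the Rasgrf1 control region (34.1%) and the H19 control region (32.9%). The smallest were at Impact (12.5%), Gpr1 (12.8%), Zrsr1 (14.8%), Inpp5f (20.5%), Plagl1 (21.3%) and Nnat (21.3%).

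The Dlk1-Meg3 intergenic region (chr12:109527383-109530388), which is methylated on the paternal copy, had 2.06%, 13.7% and 32.4% as lowest, median and highest value in 16 low lines and 10.97%, 31.3% and 39.5% in 24 intermediate lines. In 10 of 16 low lines it was at or above 10%. The H19 control region, also paternal, had 1.47%, 8.99% and 27.8% against 12.4%, 33.1% and 45.5%. Snrpn, maternally methylated, had 2.03%, 11.1% and 26.5% against 11.03%, 27.9% and 40.1%. Peg13 had 0.672%, 12.5% and 43.7% against 21.7%, 41.8% and 82.9%. At these loci some low lines had values inside the intermediate range.

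At the other end, Impact had 0.502%, 1.48% and 10.2% in low lines and 0.626%, 20.8% and 35.9% in intermediate lines, and 14 of 16 low lines were under 5%. Gpr1 had 0%, 2.16% and 7.06% against 0.208%, 15.8% and 43.7%, with 15 of 16 low lines under 5%. Zrsr1 had 0.289%, 1.71% and 10.2% against 0.637%, 19.2% and 36.8%, with 13 of 16 under 5%. All 3 are maternally methylated loci. Over the loci, the 16 regions listed as maternally methylated had a median share of 22.4% (12.5% to 42.2%), and the 4 listed as paternally methylated, of which 2 are at Rasgrf1, had 33.5% (26.6% to 44.3%). The Meg3 promoter, whose methylation is set after fertilisation, had 23.9%. A list of imprinted genes had 27 regions from several categories, most of them the imprinting regions already described. It did not cover the Dlk1-Meg3 intergenic region or Rasgrf1. Its median share was 24.9%, beside 30.7% over all regions. At or above 40% were 3 of 27, near the 9.66% of all regions. The ranges of the 2 parental classes overlap, and 4 regions are too few to set them apart.

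**Figure D4:**
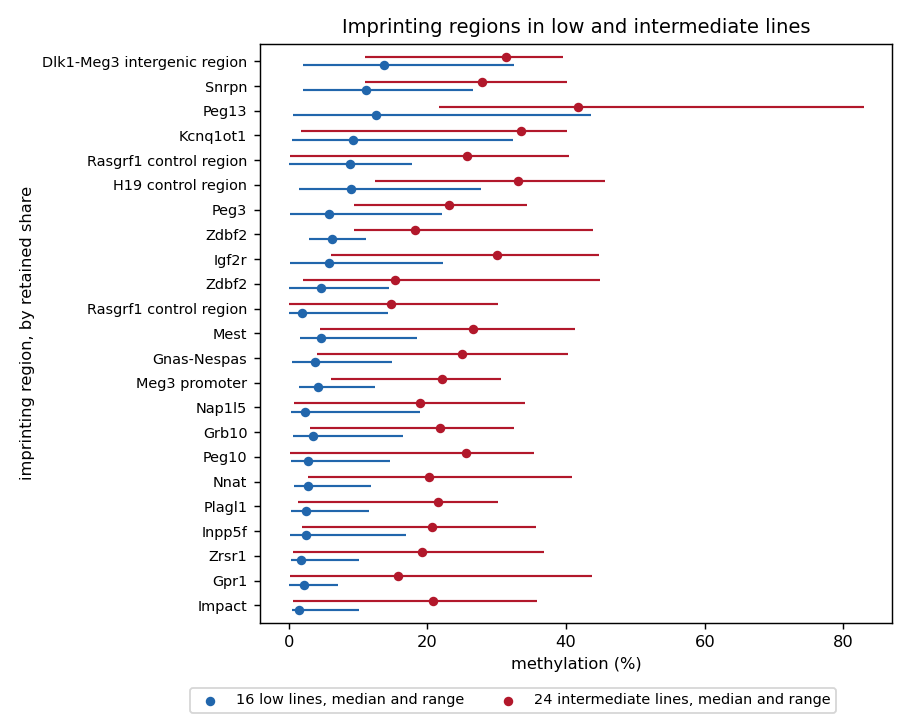
Median and range of methylation in percent (horizontal axis) in up to 16 low lines (blue) and 24 intermediate lines (red) at 23 imprinting regions (vertical axis), ordered by retained share. The blue and red ranges overlap at every locus, and blue medians run from 1.48% at Impact to 13.7% at the Dlk1-Meg3 intergenic region.

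The spread between low lines was wide at these loci. The mean of the imprinting regions was 6.89% ± 4.66 in low lines and ran from 1.18% (B3Bd20N) to 17.3% (B3Ad20N). The mean of their other regions was 6.03% ± 1.73. The ratio of imprinting to other mean was 1.12 ± 0.613 in low lines, from 0.265 (B3Bd20N) to 2.08 (B3Ad26N), and 1.28 ± 0.286 in intermediate lines. It was above 1 in 9 of 16 low lines and in 21 of 24 intermediate lines. The other regions include 321 with an intermediate mean under 10%, so a ratio of 1 is not a neutral point. By retained share, the median of the imprinting regions exceeded that of the other regions in 5 of 16 low lines. B3Ad26N had 43.7% at Peg13, 31.8% at the Dlk1-Meg3 intergenic region and 22.6% at Kcnq1ot1, yet 10.2% at Impact and 3.72% at Gpr1. B3Ad16N, with a mean of 4.84% over all kept regions, had 25.5% at Snrpn and 23.3% at Peg13 but 0.888% at Impact. B3Bd20N had no imprinting region above 5.37%, and B3Ad36 none above 6.71%.

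**Figure D5:**
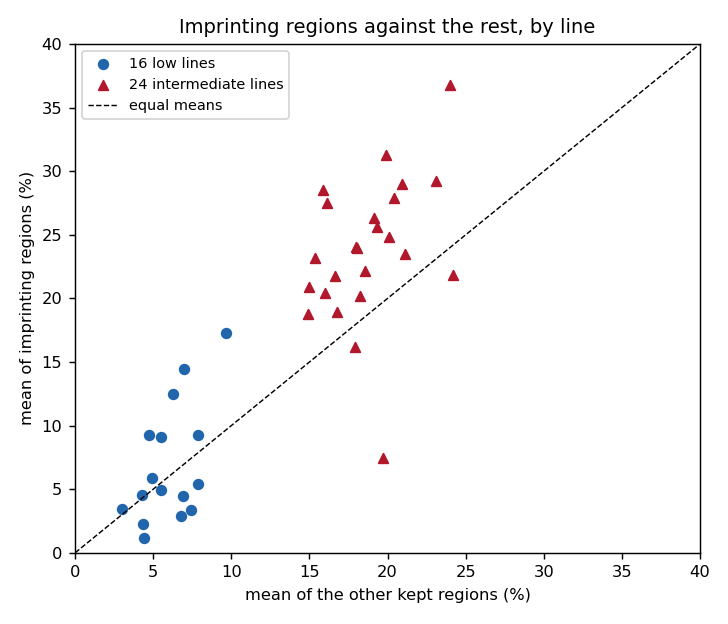
Mean methylation of the imprinting regions (vertical axis, percent) against the mean of all other kept regions (horizontal axis, percent) for 16 low lines (circles) and 24 intermediate lines (triangles), with a dashed line of equal means. Low lines lie on both sides of the dashed line, 9 above and 7 below, and the lone triangle far below it is B3Bd15N.

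The category median for imprinting differed with the lines and the average used, but each shift was within its SD between low lines. It was 27.7% within B3A and 15% within B3B, and with the median over lines in place of the mean it was 17.4%, beside 29.3% over all regions. Without columns with a final N it was 19.3%, beside 31.4%. It was below the all-region median under each of these settings. In the lines outside both sets, however, the imprinting ratio was 43.5%, above the 40.7% of all regions. The imprinting regions thus had a lower ratio than other regions from intermediate to low lines and a higher one from high lines to those between 10% and 15%, and the difference between these 2 steps was not tested.

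Other properties of the regions went with little difference in retained share. The 12 regions on chromosome X had a median share of 28.8% and the 454 autosomal ones 30.8%. The 124 regions that overlap a promoter window had 30% and the other 342 had 30.98%. Regions overlapping a gene had 30.8% (423) and those outside genes 30.2% (43). At single CpGs, a median of 55.0% of values in a low line were exactly 0, against 37.2% in an intermediate line. At or above 50% were 0.0568% against 3.75%. Exact zeros did not follow the level alone. The low lines listed under 2 titles had the fewest, 26.1% (B3Ad44N), 28.7% (B3Ad36) and 29.7% (B3Ad21N). Among low lines they also lacked a value at the fewest regions, 33, 29 and 32 in the same order. B3Bd27N, which lacked a value at 57 regions, had 58.5% exact zeros at a mean of 4.28%, close to the 4.29% of B3Ad36. The reason was not tested.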

How the data were processed

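Genomic DNA was read by enzymatic methyl sequencing with Twist capture, per the labels' protocols. The authors deposited methylation fractions for 7917 CpGs and average fractions for 868 target regions in 85 columns, with a coverage filter of 10 in the names of the deposited tables. Trim Galore 0.6.4, Bismark, Bowtie2 and mm10 appear in the submitters' processing notes; the labels give no settings. The deposited tables hold no read counts, so no counting interval was computed.

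Columns were matched to 101 titles by name: 44 matched 1 title and 41 served only as members of their prefix group. No columns were identical. Fractions were multiplied by 100. Regions were named from RefSeq genes of GRCm38.p6 (mm10 coordinates). Gene lists, the region categories and the lines were chosen with earlier results of these data known. Named regions were the 15 with the highest low mean, the 15 largest and 15 smallest retained shares with an intermediate mean of at least 20% and a value in at least 80% of low lines, the 6 largest and smallest imprinting regions, and 2 of each for other categories. Listed genes, regions with a share of at least 50%, and single lines were named beside these after their values were seen. Only the 4 label tests used p-values, from 100000 resamples (smallest possible 1e-05) or Fisher's exact test, adjusted over 4. The calculation of the ratio was run on simulated data with independent noise in each region and line. The simulation held no shift shared by the regions of a line, so it checks the calculation only. Python 3.11.15, NumPy 2.4.6, pandas 2.3.3, SciPy 1.17.1 and matplotlib 3.10.9 were used.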

Additional observations from a re-analysis of the deposited data

Results flagged for a closer look

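Of 24 checks of a line value within a prefix of the low or the intermediate set, 1 stood out, and chance gives about 1 in 20. Among the 5 intermediate B2 lines, B2d18 lacked a value at 101 regions, while the next line lacked 40 and the lowest 25.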

How the results depend on the processing

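The low lines numbered 15 to 22 and the intermediate lines 24 to 27 under other rules. The median retained share of 30.7% stayed between 28.8% and 37.8% under 12 alternatives, each within the SD of 9.49 points between low lines. The count of regions at or above 50% was less stable. It was 0 of 362 with regions valued in every column, 12 of 513 with all regions with any value, 24 with low lines under 12%, 9 without columns with a final N, 8 and 1 with an intermediate mean of at least 5% and 20%, 9 within B3A, 12 within B3B, 0 at a limit of 60% and 45 at 40%. The prefix makeup passed with regions valued in every column (chi-square 11.9 in place of 9.13, adjusted p = 0.0237 by permutation; 0.167 to 0.432 under the other settings). The difference in regions without a value turned to -1.68 with low lines under 8% and to -2.28 without columns with a final N. Of 73 regions named by level or share, 5 moved by more than the SD between low lines under some setting: Ahr and Haus4 within B3A (113.9% and 42.7%), Pax6 and Arhgap28 recomputed from CpGs (28.2% and 59.5%), and Traf3ip3 with low lines under 12% (28.3%). The cause was not tested. That SD is wide at single regions, with 24.1 points near Rubie and 55.2 at Zfp64. A region counted as unmoved could still shift, as near Rubie, from 57.4% to 39.3% within B3A. Recomputed from CpGs, 2 named regions moved, 46 did not and the others had no value. No paired analysis was possible because the column names carry no replicate numbers and the numbers given only name lines. Unknown depth limits every single value.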
